A study of Mus musculus with 6 samples.

Results

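The 3 IGF2BP genes (Igf2bp1, Igf2bp2, Igf2bp3), the 2 LIN28 genes (Lin28a, Lin28b) and the 2 HMGA genes (Hmga1, Hmga2) are grouped as oncofetal genes. Such genes are active in embryos and in many tumours and low in most adult tissue, although Igf2bp2 stays active in many adult tissues. The 7 genes were followed here in cultured CD63+ cells from mouse liver. All probes named by a RefSeq transcript of these 7 genes were taken, which gave 12 probes for 7 of the 20659 genes with a named probe. The genes were chosen with their difference between the 2 groups already known, so their values are given as a description and without a test. The DDC injury group held 3 arrays of cells taken from livers after injury by DDC, a porphyrin-inducing agent known to damage bile ducts. The no-injury group held 3 arrays of cells from uninjured livers. Both groups had been sorted for the tetraspanin CD63 and cultured with serum, nicotinamide, dexamethasone, insulin-transferrin-selenium and the growth factors EGF and HGF, so the values describe cultures. Strain, sex and age were not given in the sources used here. Some cultures also received bFGF and VEGF, but the labels name them by codes found in no title, so this treatment and the injury cannot be told apart here.

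Igf2bp1, Igf2bp2 and Igf2bp3 encode RNA-binding proteins with KH domains that hold, move or stabilise target mRNAs, many of them marked by m6A. Lin28a and Lin28b encode proteins that bind the precursor of the microRNA let-7 and block its maturation. Mature let-7 in turn represses Hmga2, the IGF2BP genes and Lin28b, and the pathway is known in liver from the fetal stage, where LIN28B and IGF2BP3 are high before let-7 builds up. Hmga1 and Hmga2 encode small chromatin proteins with AT-hooks that bind the minor groove of DNA and bend it.

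The let-7 sequences are shown because LIN28 proteins and most of these genes meet at this microRNA, whose level is not analysed here. They come from RefSeq (GRCm38.p6), and the capitals mark the seed, bases 2 to 8.
mmu-let-7a-5p: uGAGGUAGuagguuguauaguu
mmu-let-7b-5p: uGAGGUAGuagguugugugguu
mmu-let-7d-5p: aGAGGUAGuagguugcauaguu
mmu-let-7g-5p: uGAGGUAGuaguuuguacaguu
mmu-let-7i-5p: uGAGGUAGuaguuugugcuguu
The seed GAGGUAG was shared by 9 of 10 let-7 names in this table, and by 11 of 1679 mature names in all. LIN28 proteins are known to hold precursors at the letters GGAG in the loop. In the stretch between the 2 mature arms these letters, searched on the RNA strand, stood in 8 of 10 let-7 hairpins, among them Mirlet7g (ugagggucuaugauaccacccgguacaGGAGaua, GGAG in capitals), and in 8.07% of 644 hairpins with both arms listed. Mirlet7b (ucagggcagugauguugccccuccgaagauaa) was 1 of the 2 without them, which says only that these letters are not in this window.

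Each sample had been hybridised to 1 array of 1 colour with 43020 spots that were not controls. On the 6 arrays 75% of the processed signals lay under 1441 to 2271 intensity units, and 65.0% to 74.8% of the spots were well above background, the scanner software's call that a spot exceeds its background noise. Levels below are on a log2 scale, relative to the 75th percentile of the processed signals on the same array, so that 0 stands for that percentile. Levels of different probes cannot be set against each other. The surface marker used for the sort was present: Cd63 lay between 3.65 and 4.07 on the DDC injury arrays and between 3.88 and 3.95 on the no-injury arrays. The spread between no-injury replicates 1 and 3 was 1.08 times the sampling noise, taken from repeated spots of 137 probes, and a difference beyond that noise was not shown (chi-square p = 0.0957). They were therefore counted as 1 sample, although the series speaks of 6 cell lines, so means are over 3 DDC injury and 2 no-injury samples. The spread was 4.92 to 18.6 times that noise between DDC injury arrays, and no-injury replicate 2 differed by 1.5 times the noise from replicate 1 and by 2.05 times from replicate 3, and whether it is a separate culture was not tested. No scan held both groups, so scan and group cannot be told apart, while the second scan day held DDC injury replicates 2 and 3 with all no-injury arrays. Fewer cells of a type and less RNA per cell cannot be told apart in such bulk samples.

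**Figure D1:**
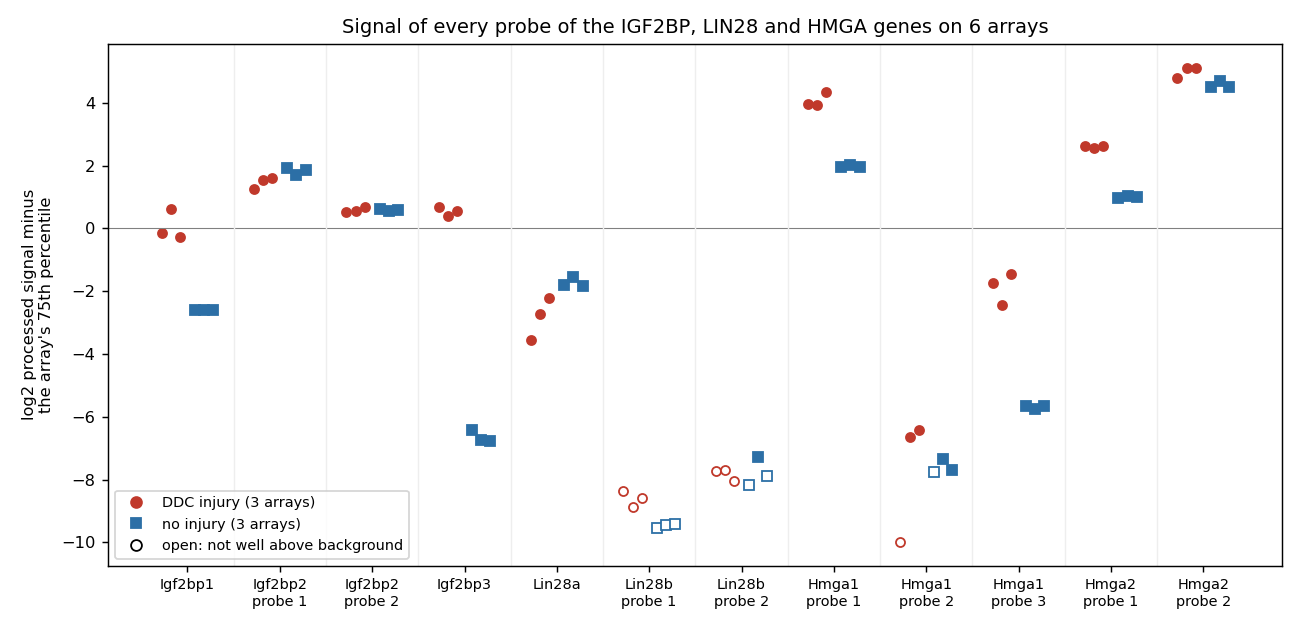
Log2 level relative to the 75th percentile of the array (vertical axis) of the 12 probes (horizontal axis), with DDC injury arrays as circles left of the no-injury arrays as squares, 1 point per array and open symbols where a spot was not well above background. Igf2bp1, Igf2bp3, both brighter Hmga1 probes and both Hmga2 probes lay higher on all 3 DDC injury arrays, Lin28a lay lower, and both Lin28b probes stayed at the bottom of the scale.

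Of the 12 probes, 9 were well above background on all 6 arrays. On 6 of these 9 all DDC injury arrays lay above all no-injury arrays, on 2 they lay below, and on 1 the groups overlapped. Over all 22483 probes of that kind 33.6% lay above and 32.2% below without overlap, 65.8% either way. Nothing is read from the members' counts, because they were chosen on this contrast. Of the 7 genes, 6 passed the filter for the fit over all genes, in which 33.4% of the genes tested differed between the groups, and Lin28b did not.

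Igf2bp3, which encodes the family member most often used as a tumour marker, had the largest difference. Its single probe had levels of 0.69, 0.38 and 0.54 on the DDC injury arrays and of -6.43, -6.74 and -6.77 on the no-injury arrays. The groups lay far apart, and no DDC injury array came near any no-injury array. The mean level was 0.54 ± 0.15 (SD, n = 3) in the DDC injury group and -6.67 ± 0.10 (SD, n = 2) in the no-injury group, a difference of 7.21 on the log2 scale or 148-fold. In raw terms the spot read 2814, 1770.5 and 2085.5 intensity units in the DDC injury group, against 68.5, 77 and 66 units over a local background of 21 to 22 units in the no-injury group. The no-injury spots were therefore above background but close to it, and the size of the difference depends on how background is handled. With normexp background correction it was 4.96, or 31.1-fold, and in the authors' value table it was 5.58. The difference was 7.14 within the second scan day.

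**Figure D2:**
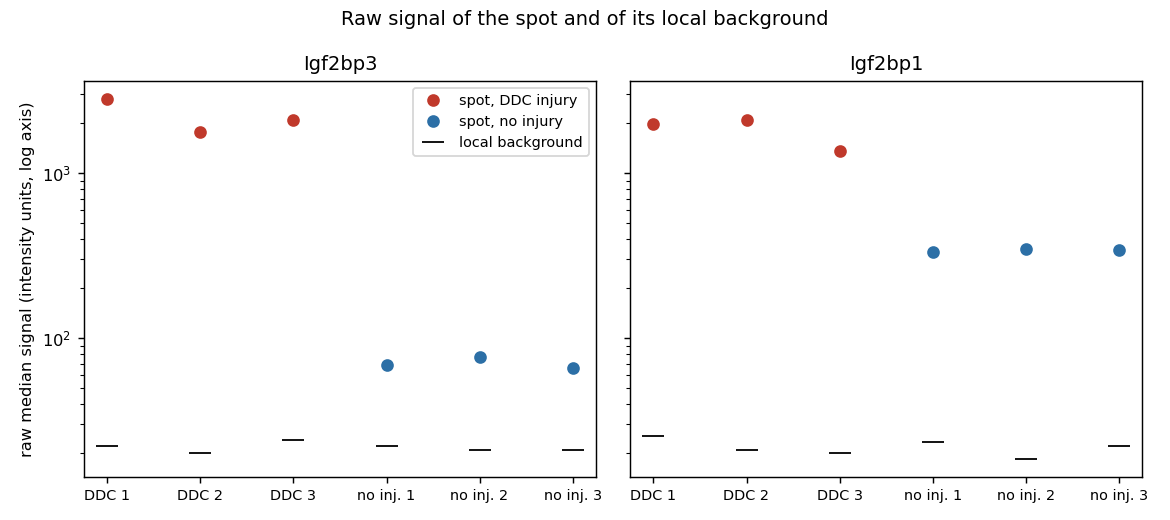
Raw median signal of the spot (circles, intensity units, log axis) and of its local background (dashes) for Igf2bp3 on the left and Igf2bp1 on the right, for each DDC injury array and then each no-injury array. Igf2bp3 spots of the no-injury arrays lay at 66 to 77 units, close to their background, and Igf2bp1 spots of the same arrays at 334 to 345 units.

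The 250 bases upstream of the Igf2bp3 start are shown because this gene differed most. They are GRCm38.p6 chr6:49214955-49215204, minus strand, from RefSeq, printed 5′ to 3′ in the direction of the gene, with the CCAAT box (CCAAT) and the E-box (CACGTG) in capitals.
Igf2bp3: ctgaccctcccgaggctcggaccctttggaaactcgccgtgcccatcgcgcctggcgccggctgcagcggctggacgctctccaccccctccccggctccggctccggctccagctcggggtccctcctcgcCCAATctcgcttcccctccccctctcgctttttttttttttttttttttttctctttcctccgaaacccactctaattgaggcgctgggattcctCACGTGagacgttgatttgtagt
Searched on both strands, CCAAT stood in 33.8% and CACGTG in 6.02% of 32851 upstream windows of the same length, GGGCGG (the GC box) in 32.7% and TATAAA (the TATA box) in 12.4%. The last 2 were not found in this window. It held 21 CG pairs, against a median of 6 over all windows. Of the 7 genes, 6 had a window, and among the other 5 1 held CACGTG too, that of Lin28b. A match of letters is a description and not a bound site.

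Igf2bp1, known for localising beta-actin mRNA and stabilising Myc mRNA, was also higher. Its level was -0.15, 0.61 and -0.27 on the DDC injury arrays and -2.61, -2.58 and -2.61 on the no-injury arrays. The groups did not overlap, the no-injury arrays were almost equal, and DDC injury replicate 2 stood above the other DDC injury arrays. The means were 0.07 ± 0.48 (SD, n = 3) in the DDC injury group and -2.60 ± 0.02 (SD, n = 2) in the no-injury group, a difference of 2.66 or 6.33-fold. Under the 4 scalings tried the difference lay between 2.63 and 2.77, and within the second scan day it was 2.77.

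Igf2bp2, the member of the family that stays active in many adult tissues, differed little. Probe 1 had levels of 1.26, 1.53 and 1.61 on the DDC injury arrays and of 1.92, 1.70 and 1.86 on the no-injury arrays. The DDC injury arrays lay just below the no-injury arrays, by -0.33 in the means, and by -0.41 to -0.20 over the scalings. Probe 2 had levels of 0.51, 0.56 and 0.68 on the DDC injury arrays and of 0.61, 0.56 and 0.60 on the no-injury arrays, and the groups overlapped. Within the second scan day the differences were -0.23 for probe 1 and 0.04 for probe 2. The 3 paralogues thus covered a difference of 7.21, one of 2.66 and one near 0 in the same samples.

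Hmga1 was higher on both of its probes that were above background on all arrays. Probe 1, named by NM_016660, had levels of 3.97, 3.92 and 4.34 on the DDC injury arrays and of 1.97, 2.01 and 1.97 on the no-injury arrays. Its means were 4.08 ± 0.23 (SD, n = 3) in the DDC injury group and 1.99 ± 0.03 (SD, n = 2) in the no-injury group, a difference of 2.09 or 4.25-fold. Probe 3, named by NM_001166546, had levels of -1.74, -2.44 and -1.47 on the DDC injury arrays and of -5.65, -5.75 and -5.65 on the no-injury arrays, a difference of 3.82. Both probes ordered the groups alike without overlap and gave differences of unlike size, and with normexp correction probe 3 differed by 2.69 (6.44-fold, against 14.1-fold with the processed signal). Probe 2, named by NM_001166537, was well above background on 2 of 3 arrays in each group, ranged from -9.99 to -6.41 in the DDC injury group and from -7.75 to -7.34 in the no-injury group, and overlapped. The near-identical copy Hmga1b had no probe named here, so signal from its transcripts could enter the Hmga1 probes. Within the second scan day probe 1 differed by 2.14 and probe 3 by 3.75.

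An upstream window of Hmga1 is printed because it holds GC boxes, which the Igf2bp3 window lacks. It is GRCm38.p6 chr17:27556324-27556573, plus strand, from RefSeq, 5′ to 3′, with the GC box GGGCGG and its reverse complement in capitals, which stand next to each other in 1 place and do not overlap.
Hmga1: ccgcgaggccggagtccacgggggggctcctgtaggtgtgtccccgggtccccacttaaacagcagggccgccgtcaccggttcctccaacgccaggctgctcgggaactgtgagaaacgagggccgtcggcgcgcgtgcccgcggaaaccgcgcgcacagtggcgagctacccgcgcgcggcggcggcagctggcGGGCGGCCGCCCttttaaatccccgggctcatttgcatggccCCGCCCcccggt
This window, 1 of 2 listed for Hmga1, held 34 CG pairs and was 72.8% G or C, against 77.2% in the window of Igf2bp2, which differed little, 60.4% in that of Igf2bp3 and 56.4% in that of Hmga2. The median over all windows was 52.4%. GC boxes, on either strand, also stood in the windows of Igf2bp2 (2) and Hmga2 (1).

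Hmga2, the HMGA gene most confined to embryonic tissue and a textbook target of let-7, was bright in both groups. Probe 1 had levels of 2.64, 2.58 and 2.62 on the DDC injury arrays and of 0.98, 1.04 and 0.99 on the no-injury arrays. The spread within each group was small beside the difference of 1.60, or 3.03-fold. Probe 2 had levels of 4.78, 5.10 and 5.12 on the DDC injury arrays and of 4.51, 4.68 and 4.5 on the no-injury arrays, which did not overlap but differed by 0.41 only, or 1.33-fold. Both probes are named by the same transcript, and they gave unlike sizes. Raw signals of probe 2 reached 66706 units, below the saturation value of 778078 units, and no spot of any array was saturated. Under quantile normalization probe 2 differed by 0.17, no more than the pooled SD between samples, and within the second scan day the differences were 1.59 for probe 1 and 0.52 for probe 2. The probe of the pseudogene Hmga2-ps1 had levels of -0.56, -1.16 and -1.05 on the DDC injury arrays and of -0.82, -0.82 and -0.64 on the no-injury arrays, and the groups overlapped.

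**Figure D3:**
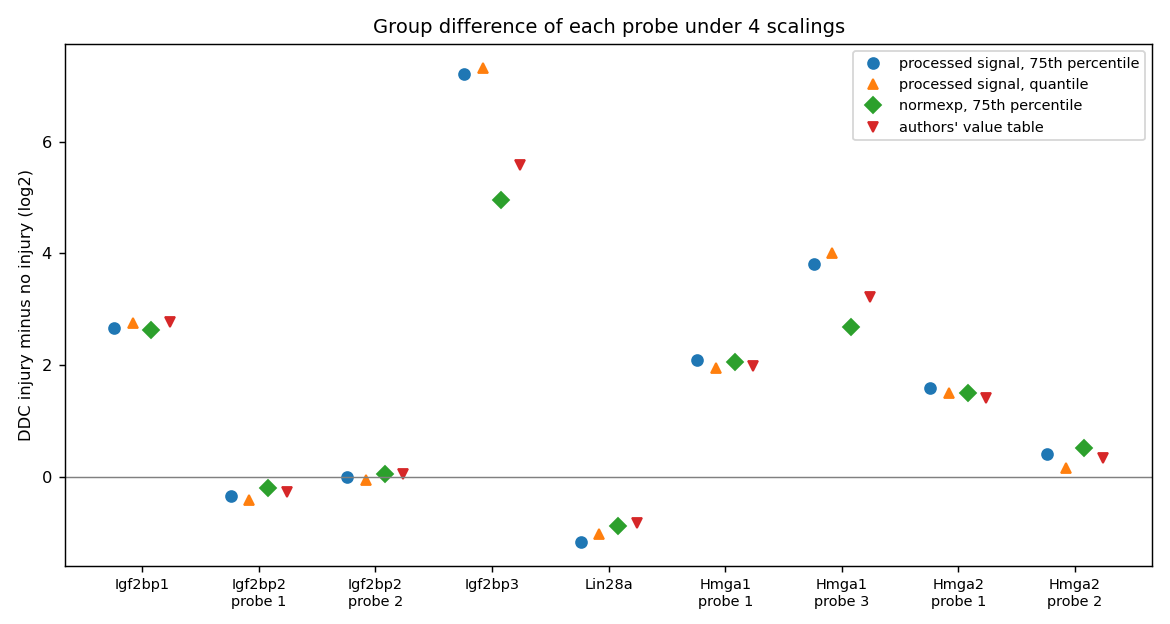
Difference DDC injury minus no injury (log2, vertical axis) of the 9 probes that were well above background on all 6 arrays, 1 symbol per scaling. The scalings lie close together except for Igf2bp3 (4.96 to 7.32) and Hmga1 probe 3 (2.69 to 4.01), whose no-injury spots were dim.

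Lin28a lay lower and Lin28b was at the limit of detection. Lin28a, the paralogue known from embryonic stem cells, had levels of -3.54, -2.74 and -2.23 on the DDC injury arrays and of -1.81, -1.54 and -1.83 on the no-injury arrays. All DDC injury arrays lay below all no-injury arrays, with DDC injury replicate 1 lowest and replicate 3 nearest to them. The mean was -2.84 ± 0.66 (SD, n = 3) in the DDC injury group and -1.68 ± 0.20 (SD, n = 2) in the no-injury group, a difference of -1.16, or 2.24-fold lower. The difference was -0.81 within the second scan day, without the lowest DDC injury array, and lay between -1.16 and -0.82 over the scalings. Lin28b, the paralogue of fetal liver and liver tumours, was at the limit of detection: probe 1 passed the call of well above background nowhere, and probe 2 passed it on 1 no-injury array. Probe 1 read -8.35, -8.88 and -8.59 on the DDC injury arrays and -9.54, -9.46 and -9.41 on the no-injury arrays, without overlap. Probe 2 had levels of -7.74, -7.71 and -8.04 on the DDC injury arrays and of -8.16, -7.28 and -7.90 on the no-injury arrays, with overlap. As both probes were at background, no fold is given.

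For each gene above background whose groups did not overlap, the 3 genes with the closest profile over the 6 arrays were looked up among 12517 genes, by the root mean square difference between centred log2 levels. They were Foxd1 (0.16), Srgap3 (0.19) and Gpc1 (0.71) for Igf2bp3, and Timeless (0.06), Spopfm2 (0.09) and Shcbp1 (0.10) for Igf2bp1. For Hmga1 they were Gpsm2 (0.08), Pif1 (0.10) and Serpina7 (0.11), and for Hmga2 probe 2 they were the ribosomal protein genes Rpl35 and Rps9 (both 0.04) and Layn (0.05). Map3k2, Rcc2 and Rnf10 (all 0.04) were closest to Igf2bp2 probe 1, and Tlr7 (0.07), Cyp4a31 (0.08) and Trem1 (0.10) to Lin28a. Of the neighbours of Igf2bp3, Gpc1 differed by 5.79 between the groups, against 7.21 for Igf2bp3 itself. The 6 arrays share the group difference, so a close profile says little beyond the size of that difference and the order of the DDC injury arrays.

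Other genes of these pathways were then counted in the fit over all 15622 genes tested, of which 17.7% passed as higher after DDC injury and 15.8% as lower (limma, adjusted p under 0.05). The median difference of all genes was -0.07. Of 24 tested genes of let-7 processing and action, 6 rose, 6 fell and 12 did not pass, with a median of -0.12. Without DDC injury replicate 3, 4 rose and 3 fell. Ago2, the Argonaute that cuts bound targets, rose by 2.03 ± 0.19 (SE, 3 and 2 samples, adjusted p = 0.00441), although its second probe differed by -0.38. The RNA-binding genes Hnrnpa1 and Ddx17 rose by 0.92 and 0.61, and Ddx17 did not pass with quantile normalization or in the authors' values, as was true of Hnrnpc below. Ago4 fell by 2.61, Ago1 by 1.34 and Dicer1, which cuts the let-7 precursor, by 1.06 ± 0.16 (adjusted p = 0.0131).

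Of 35 tested genes known as let-7 targets, 8 rose, 2 fell and 25 did not pass, with a median of 0.19. Without DDC injury replicate 3, 3 rose, and without DDC injury replicate 1 or 2, 4 fell. Cyclin D1, Ccnd1, rose by 1.31 ± 0.15 (SE, adjusted p = 0.00716) and Nme6 by 0.92. The receptors of insulin and of IGF1, Insr and Igf1r, fell by 1.24 and 0.76. Of 21 tested mRNAs known to be bound by IGF2BP proteins, 8 rose, 4 fell and 9 did not pass (median 0.21). Without DDC injury replicate 3, 5 rose. Hmmr, the hyaluronan-mediated motility receptor, rose by 2.96 ± 0.12 (SE, adjusted p = 0.00086), the cyclooxygenase gene Ptgs2 by 3.25 and Mtdh by 1.35, while the ubiquitin ligase gene Btrc fell by 2.29, Mapk4 by 1.52 and Lamb2 by 0.93. Mapk4 did not pass with normexp correction, with quantile normalization or in the authors' values.

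Of 22 tested genes of the m6A pathway, 5 rose, 3 fell and 14 did not pass (median 0.30). The writer subunit Rbm15 rose by 0.91 ± 0.11 (SE, adjusted p = 0.00741), the m6A-sensitive binder Hnrnpc by 0.63 and the eraser Alkbh5 by 0.56. The other Alkbh5 probes, also well above background on all arrays, differed by 0.11 and -0.14. The eraser Fto fell by 0.69, Zc3h13 by 0.56 and Virma by 0.45. Alkbh5, Zc3h13 and Virma did not pass with normexp correction or in the authors' values, and without DDC injury replicate 3 none of the m6A genes passed as lower. Of 18 other tested HMG genes, 7 rose, 2 fell and 9 did not pass (median 0.35). Without DDC injury replicate 3, 4 rose and 1 fell. Hmgb2, an HMG-box gene of dividing cells, rose by 2.00 ± 0.09 (SE, adjusted p = 0.00112), the nucleosome-binding gene Hmgn5 by 1.97 and Ssrp1 by 0.89, with a second Ssrp1 probe at -0.85. Tox fell by 2.22.

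Of 23 tested genes of fetal liver and of oncofetal antigens, 6 rose, 5 fell and 12 did not pass (median -0.28). Alpha-fetoprotein, Afp, rose by 2.86 ± 0.26 (SE, adjusted p = 0.00403), the imprinted gene Mest by 3.17 and the pyruvate kinase gene Pkm, whose M2 form is fetal, by 1.5. Hkdc1 fell by 4.81 and was well above background on 2 of 3 DDC injury arrays, and its difference was -2.75 with normexp correction and -3.35 in the authors' values. On the processed signal the hepatoblast regulator Prox1 was 3.77-fold lower and the imprinted gene Peg3 6.83-fold lower, against a floor explained below. Neither was well above background on any DDC injury array. Both met the filter only through the no-injury arrays, which favours a difference, so no p-value is given for them. The other background correction gave less: neither passed with normexp, and the differences were -0.29 for Prox1 and -0.58 for Peg3, against -0.77 and -1.29 in the authors' values. Without no-injury replicate 1 or 3 both genes fell below the filter of 3 arrays and were not tested. The 3 genes of this list then left as lower say nothing on the stability of Prox1 and Peg3. Of 16 tested pluripotency genes, which share embryonic stem cells with Lin28a, 2 rose, 2 fell and 12 did not pass (median -0.18). Sox2 was 5.85-fold higher on the processed signal, against the same kind of floor, and Dppa2 rose by 0.87. No no-injury array had Sox2 well above background. It met the filter only through the DDC injury arrays, so no p-value is given for it. With any DDC injury array left out, Sox2 fell below the filter and was not tested. Its difference was 0.94 with normexp correction, while Dppa2 did not pass with normexp correction or in the authors' values. Tfcp2l1 fell by 2.54, with a second probe at 0.25, and Tdgf1 by 1.52, which was lost without DDC injury replicate 2. The floored folds of Prox1, Peg3 and Sox2 used the brighter group's mean. On each array of the dimmer group the probe's own signal was taken. Where that was lower than the dimmest signal of any probe above background, the latter was taken. These folds hold for the processed signal only, and with normexp correction the differences were smaller.

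**Figure D4:**
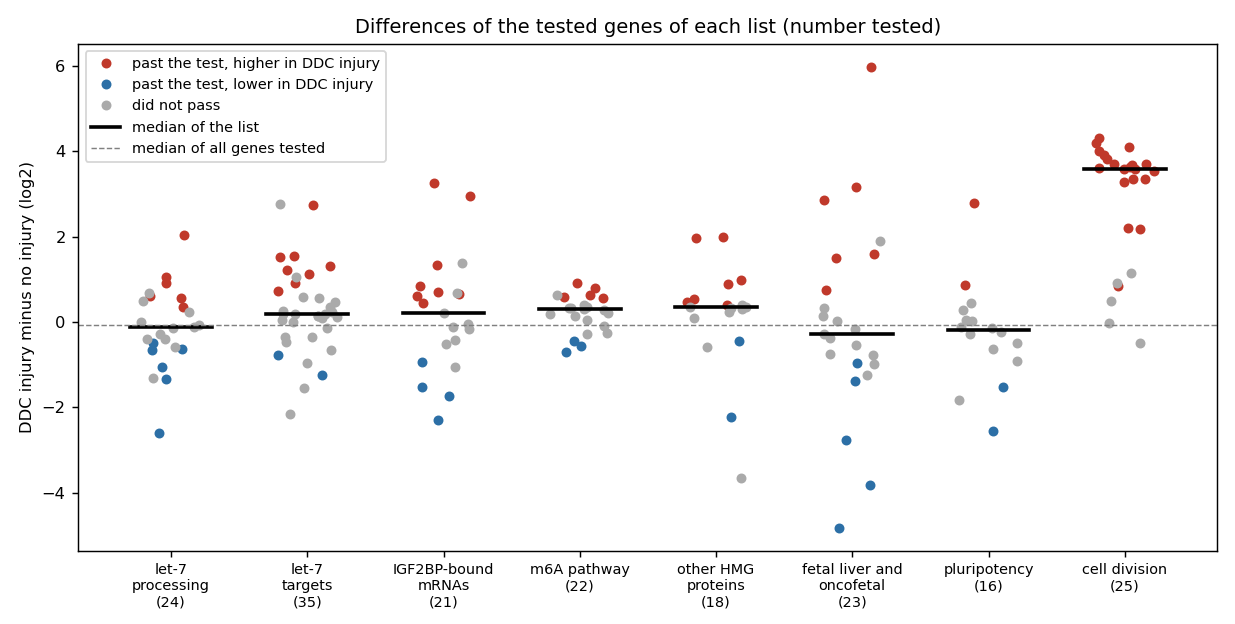
Difference DDC injury minus no injury (log2, vertical axis) of each tested gene of 8 lists (number tested in brackets), red where it was higher and blue where it was lower past the test, with the list's median as a bar and the median of all genes as a dashed line. The cell division genes have a median of 3.58, while the medians of the other lists lie between -0.28 and 0.35. Prox1, Peg3 and Sox2 are coloured too, although they met the filter only through their brighter group.

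Cell division genes moved with the group and are given for that reason. Of 25 tested, 20 rose, none fell and 5 did not pass, with a median of 3.58, and the mitotic genes Cenpe, Aurka and Kif20a rose by 4.11, 3.71 and 3.64. Their summed level relative to the 75th percentile was 142 to 160 on the DDC injury arrays and 25.3 to 25.7 on the no-injury arrays. Their part in the differences of Igf2bp1, Igf2bp3, Hmga1 and Hmga2 was not tested. Many list calls depend on how the no-injury arrays are counted: when all 3 were averaged to give 1 sample, 17 of the cell division genes still rose, and over the other 7 lists 3 genes rose and 2 fell, namely Hmmr, Hmgb2 and Hmgn5 up and Btrc and Tfcp2l1 down.

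Markers of cell types the cultures could hold moved too. Of 8 tested cholangiocyte markers 4 fell and none rose, and the summed level was 54.2 to 59.1 on the DDC injury arrays and 69.1 to 70.3 on the no-injury arrays. Of 11 hepatocyte markers 6 fell and 1 rose, with sums of 39.5 to 49.8 on the DDC injury arrays and 64.8 to 70.9 on the no-injury arrays. Alb, the albumin gene, was well above background on 2 of 3 DDC injury arrays and on all no-injury arrays. Stellate and fibroblast markers summed to 0.25 to 1.02 on the DDC injury arrays and 0.28 to 0.43 on the no-injury arrays, with Des at background on all arrays, and of 7 tested 1 rose. Endothelial markers summed to 0.17 to 0.59 on the DDC injury arrays and 0.54 to 0.81 on the no-injury arrays, and none of 6 tested passed. Immune markers summed to 1.26 to 3.12 on the DDC injury arrays and 3.83 to 4.53 on the no-injury arrays, and of 8 tested 1 fell. Erythroid markers summed to 0.04 to 1.23 on the DDC injury arrays and 1.1 to 3.59 on the no-injury arrays, with Gata1 at background on all arrays, and none of 5 tested passed. Mesothelial markers summed to 17.6 to 23.4 on the DDC injury arrays and 18.3 to 20.3 on the no-injury arrays, with 3 of 4 tested genes lower. A sum is carried by the brightest probes and can stay level while most markers fall. The median differences of the tested markers were -4.16 (mesothelial), -2.56 (erythroid), -1.94 (hepatocyte) and -1.13 (cholangiocyte). They were -0.81 for endothelial, -0.48 for immune and 0.10 for stellate and fibroblast markers. Well above background on all 6 arrays were 2 of 6 mesothelial, 3 of 7 erythroid, 6 of 11 hepatocyte and 8 of 9 cholangiocyte markers. The same held for 3 of 7 endothelial, 7 of 8 immune and 3 of 10 stellate and fibroblast markers. For dimmer markers the size of a difference can depend on how background is handled, and normexp values are not given for them. The part of such cells in the members' differences was not tested.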

How the data were processed

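Gene expression was measured on 6 Agilent arrays of design 026655, labelled with Cy3, 1 per sample. Per the file headers, Feature Extraction 11.0.1.1 read the scans. The deposited columns hold intensity values, namely a processed signal corrected for background and the raw medians of spot and local background. The authors' value table holds log2 values whose 6 columns share their quantiles (medians 6.921 to 6.927). Its starting column is not given in the sources used here, and the submitters' processing notes name limma without a version.

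Probes were named through transcript accessions in a RefSeq table of GRCm38.p6, which gave 1 symbol to 27234 of 39429 probes. The array annotation is of build mm9, so no array coordinates are given. Flagged spots were left out, repeated spots averaged, and log2 processed signal was taken minus each array's 75th percentile. The brightest probe stood for a gene in the fit, which kept genes detected above background on 3 or more of 6 arrays, with at least 2 values per group. The fit used limma 3.58.1 (R 4.3.3), two-sided, with Benjamini-Hochberg adjustment and a threshold of 0.05. The fit was checked on simulated data with independent noise in each sample, which cannot show whether arrays share a culture. The members, the 8 gene lists (197 genes) and the 7 marker lists were chosen with earlier results of these data known, and of each list up to 3 genes each way with the smallest adjusted p were named, except some that are not reported here. The series speaks of 6 cell lines, but no sample label ties an array to a culture of its own, so p-values measure the spread between these samples, and their number limits the precision. Background correction, normalization, filters, counting of arrays, scan and replicates were varied.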

Additional observations from a re-analysis of the deposited data

How the results depend on the processing

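Over 18 alternatives the differences of Igf2bp1 (2.39 to 2.83), Igf2bp2 (-0.43 to -0.17), Lin28a (-1.46 to -0.81) and Hmga1 (1.92 to 2.17) stayed within the pooled SD between samples, and no member with groups that did not overlap changed its sign. Some alternatives could not move these genes, namely other filters on dim probes and keeping flagged spots. The values are those of each gene's brightest probe, or of the mean of its probes in the alternative that averages them. Hmga1 probe 3, which is not the brightest, ranged from 2.69 to 4.01 over the scalings. The second scan day and leaving out DDC injury replicate 1 are the same fit. Igf2bp3 differed by 4.96 with normexp and by 5.58 in the authors' values. Hmga2 differed by 0.17 under quantile normalization and by 1.00 as the mean of its 2 probes. Lin28b, at background, differed by 0.22 with normexp, by 0.34 as the mean of its probes, and by -0.24 to 0.20 leaving out 1 array each. Over the lists 62 genes were higher and 24 lower, and with all 6 arrays counted separately 37 were lower. The 62 include Sox2 and the 24 include Prox1 and Peg3, which met the filter only through their brighter group. With all 3 no-injury arrays merged to give 1 sample, which leaves fewer samples, 342 genes were higher and 206 lower over all genes tested, against 2761 and 2463, and 20 and 2 over the lists. Of the 41 list genes that the naming rule picked, 8 then passed. Leaving out 1 array each gave 350 to 3692 genes higher and 165 to 3145 lower, and 20 to 71 and 2 to 31 over the lists, with the lowest counts without no-injury replicate 2, where the lone no-injury sample is assumed to vary like the others. Without DDC injury replicate 3, 1727 genes were higher and 1548 lower, and 15 list genes were lower. Same-numbered arrays of the 2 groups correlated in their deviations by 0.12, 0.02 and 0.12, so the numbers were not taken as pairs. With the replicate number as a block and all 6 arrays counted separately, 2838 genes were higher and 2725 lower. Signal over background limits the size of the Igf2bp3 difference, and for Lin28b and Hmga1 probe 2 (-0.15, against 0.28 under another scaling) also the direction.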

Other observations

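Plac1, a placental gene that some tumours express, had the largest difference in the fetal liver and oncofetal list and is named after its values were seen. Its level was -3.70, -1.38 and -3.91 on the DDC injury arrays and -9.78, -9.85 and -6.40 on the no-injury arrays, where it was well above background on 1 of 3. It rose by 5.97 ± 1.03 (SE, 3 and 2 samples), and by 2.45 with normexp correction. The SE leaves out the gap between no-injury replicates 1 and 3 (-9.78 and -6.40), which were averaged. No p-value is given, since Plac1 was picked for its size and met the filter mainly through the DDC injury arrays.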
